A study of Rattus norvegicus with 22 samples.

Results

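The 2 snRNA-Seq libraries of rats given DOCA and amiloride were compared, by cell composition, with the 5 libraries of rats given DOCA alone. They were chosen by the treatment written for each nucleus in the authors' deposited annotation, which lists 22 libraries and 310282 nuclei in all. The 2 amiloride libraries held 21316 nuclei and the 5 DOCA libraries 47264, and 5 control libraries with 46857 nuclei are given beside them. Male Sprague-Dawley rats of the DOCA groups had 1 kidney removed, drank salt water and received 50 mg/kg DOCA under the skin each week. The study describes amiloride in the model with 1 kidney removed, although its Methods list of nephrectomized groups leaves the amiloride group out. The amiloride group also received amiloride by gavage at 20 mg/kg per day, whereas the DOCA group received vehicle. Control rats were sham-operated, kept both kidneys, and received neither DOCA nor salt water. Both amiloride samples and all 5 control samples were taken at 6 weeks. The DOCA group had 4 samples from 6 weeks and 1 from 3 weeks. Groups given DOCA with finerenone (10 mg/kg per day) or spironolactone (50 mg/kg per day) are used below for comparison by library name. Each of these groups also had 4 samples from 6 weeks and 1 from 3 weeks. The labels list these times as age, and in the study they count from the start of treatment.

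Deoxycorticosterone acetate (DOCA) is a steroid that activates the mineralocorticoid receptor, through which principal cells of the collecting duct insert more epithelial sodium channels (ENaC) and take up more sodium. Amiloride is a diuretic that blocks ENaC itself, downstream of the receptor. With salt and the loss of a kidney, DOCA produces hypertension and kidney injury in rats, in which proximal tubule cells can enter an injured state and immune cells and fibroblasts can accumulate.

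Each library name holds a number, and some hold the words Old, New or MO, which the sources used here do not explain except that 5 libraries carry MO and 5 samples were made with the Multiome kit. The amiloride libraries were RK11.2.New with 11144 nuclei and RK12.2.New.MO with 10172 nuclei. Those of DOCA were RK2.2.New with 13307 nuclei, RK7.1 with 1774, RK7.2 with 8716, RK8.2 with 8300 and RK9.1.Old.MO with 15167. Of the DOCA libraries, 1 is thus a New library, and the 3 without Old or New in their names have no counterpart among the amiloride libraries. RK12.2.New.MO shared 204 to 302 barcode sequences with each of the other 4 MO libraries and at most 2 with any of the other 17. RK11.2.New shared 2 to 161 with each of the 16 other libraries without MO and at most 1 with those that have it. Whether a shared barcode stands for a shared nucleus was not tested. Library names do not say which sample or time a library stands for, so each library is 1 value. The labels list 11 samples under Cell Ranger 3.0.2, all from 6 weeks, and 11 under Cell Ranger 6.0.1, among them both amiloride samples, the 3-week DOCA sample and 1 other DOCA sample. In every treatment these numbers equal those of the libraries without and with Old or New in their names, and the barcode endings divide the libraries in the same way. If this match holds, the 3-week DOCA library is RK2.2.New or RK9.1.Old.MO, but numbers alone assign no library to a sample. The annotation names 16 cell types, and since gene values were not analysed here, these names could not be checked against marker genes. All values below are shares of the nuclei of a library in percent. Intervals are exact (Clopper-Pearson) 95% binomial intervals, which cover counting error only, and a share falls when another cell type rises, so that fewer nuclei of a type and more of the others cannot be told apart.

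Of the 16 cell types, 1 lay outside the range of the 5 DOCA libraries in both amiloride libraries, which is 6.25% of the types. This was the injured proximal tubule (iPT) cell, which was lower in both. No type was higher in both, and the other 15 overlapped. Each amiloride library on its own left the DOCA range more often, RK11.2.New in 6 types (37.5%) and RK12.2.New.MO in 8 (50%), but except for iPT these were different types or opposite directions. IC_A and endothelial cells lay below the DOCA range in RK11.2.New and above it in RK12.2.New.MO. With 2 libraries against 5, the smallest two-sided p an exact permutation test can give is 0.0952, so no type could pass a threshold of 0.05. Only iPT reached this smallest value. The test gives it whenever both amiloride libraries lie outside the DOCA range on the same side, so it only restates that position. After Benjamini-Hochberg adjustment over the 16 types the lowest p of the exact permutation tests was 0.653.

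**Figure D1:**
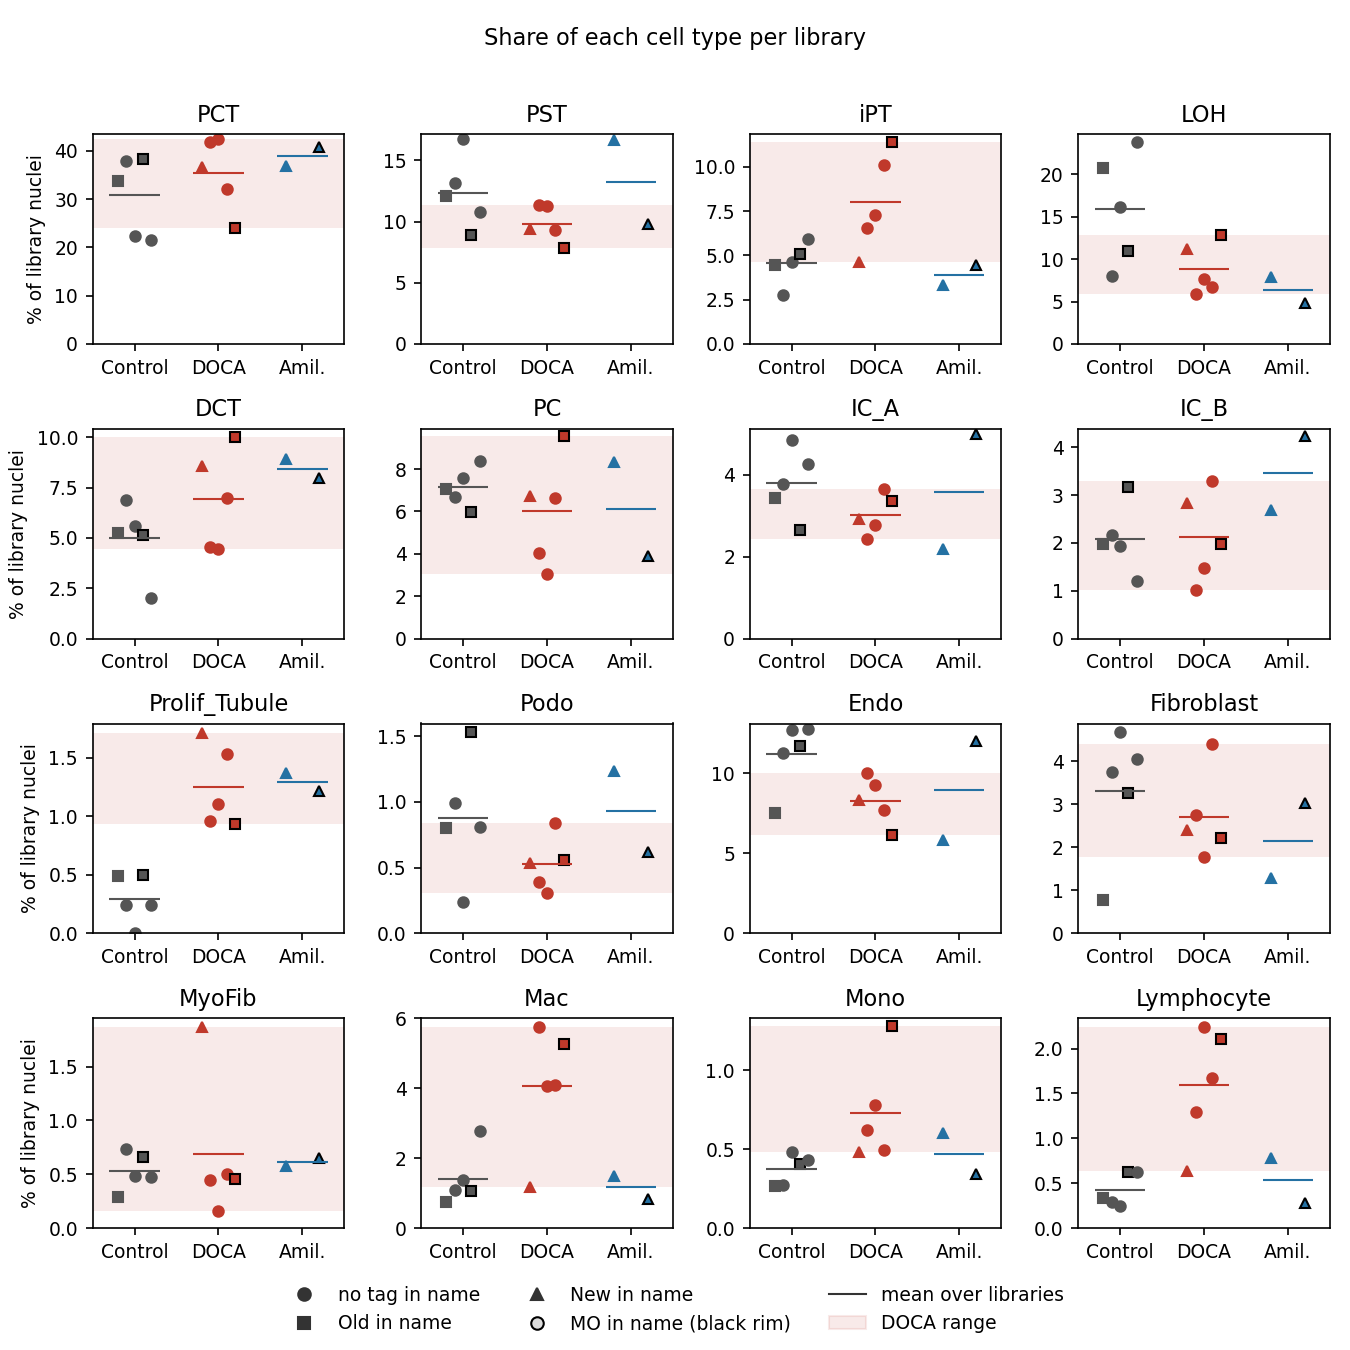
Each panel plots 1 cell type, with its share in percent of the library's nuclei on the y axis (from 0, each panel with its own scale) and 1 point per library in the control (n = 5), DOCA (n = 5) and amiloride plus DOCA (Amil., n = 2) groups. Bars mark means and the shaded band the DOCA range; in the iPT panel alone both amiloride points lie below the band, and in no panel are both above it.

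The proximal tubule, which reabsorbs most of the filtered load, made up 56.8% of RK11.2.New and 55.1% of RK12.2.New.MO as the sum of PCT, PST and iPT, within the 43.3% to 61.0% of the DOCA libraries and above the 38.2% to 53.9% of the controls. iPT cells are those the study named for injury markers. Their share was 3.30% (95% interval 2.98% to 3.65%) in RK11.2.New and 4.43% (4.04% to 4.85%) in RK12.2.New.MO. In DOCA it was 4.64% in RK2.2.New, 6.54% in RK7.1, 7.29% in RK7.2, 10.1% in RK8.2 and 11.4% in RK9.1.Old.MO. Both amiloride libraries were thus below all 5 DOCA libraries, but the margin was narrow. The lowest DOCA library, RK2.2.New, had an interval of 4.29% to 5.02%, which overlaps that of RK12.2.New.MO, so the gap between these libraries was not detectable at this depth. The mean was 3.87% with amiloride and 8.00% ± 2.74 (SD, n = 5) with DOCA, a difference of -4.13 percentage points (exact permutation test, two-sided, p = 0.0952, adjusted p = 0.653). Both amiloride values lay between the lowest and the highest control library, at 2.79% and 5.95%. On centred log-ratios, which set each count against the geometric mean of all 16 types in its library, iPT no longer lay outside the DOCA range, with 0.15 and 0.71 on the log2 scale in the amiloride libraries and 0.55 in RK2.2.New.

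The same iPT nuclei were also set against the proximal tubule alone, which is not a separate observation. Of PCT, PST and iPT nuclei together, iPT cells made up 5.81% in RK11.2.New and 8.04% in RK12.2.New.MO, against 9.17% to 26.4% in the DOCA libraries and 5.18% to 15.6% in controls. The interval of RK2.2.New, 8.49% to 9.89%, overlapped that of RK12.2.New.MO, 7.35% to 8.79%. In the 4 New libraries of other treatments this ratio ranged from 1.72% to 10.3%, around both amiloride values. PCT cells, of the convoluted part, were the most numerous type, at 36.8% and 40.8% with amiloride, inside the DOCA range of 24.0% to 42.5%. PST cells, of the straight part, made up 16.7% of RK11.2.New, above the highest DOCA library at 11.3%, but 9.83% of RK12.2.New.MO, inside the range that begins at 7.81%. The mean PST share was 13.2% against 9.82% ± 1.48 (SD, n = 5) in DOCA (exact permutation test, two-sided, p = 0.286, adjusted p = 0.653). The 2 amiloride libraries differed from each other in PST by 6.83 percentage points, more than the whole DOCA group did.

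Beyond the proximal tubule, the shares of loop of Henle and distal convoluted tubule cells each overlapped DOCA, while their ratio did not. LOH cells, which carry the cotransporter blocked by loop diuretics, made up 7.90% of RK11.2.New and 4.79% of RK12.2.New.MO. The DOCA libraries had 11.2% in RK2.2.New, 5.92% in RK7.1, 7.64% in RK7.2, 6.76% in RK8.2 and 12.9% in RK9.1.Old.MO, so that the groups overlapped. DCT cells, which carry the thiazide-sensitive cotransporter, made up 8.91% and 7.96% with amiloride, in the upper part of the DOCA range of 4.46% to 10.0%. Taken as a ratio, LOH nuclei were 47.0% of LOH and DCT nuclei in RK11.2.New (95% interval 44.7% to 49.3%) and 37.5% in RK12.2.New.MO (34.9% to 40.2%). In DOCA this ratio was 56.7% in RK2.2.New, 56.5% in RK7.1, 63.1% in RK7.2, 49.3% in RK8.2 and 56.2% in RK9.1.Old.MO. Both amiloride libraries thus lay below every DOCA library, although the interval of RK8.2, 46.3% to 52.2%, overlapped that of RK11.2.New. They also lay below the 5 control libraries, which ranged from 53.6% to 92.3%. The mean was 42.3% with amiloride and 56.3% ± 4.91 (SD, n = 5) with DOCA (exact permutation test, two-sided, p = 0.0952, adjusted p = 0.317 over the 10 ratios). Here too the unadjusted p only restates that both libraries lay outside the DOCA range. When DCT was expressed over nuclei outside the proximal tubule, it was 20.6% and 17.7% with amiloride, and the highest DOCA library, RK9.1.Old.MO, had 17.7%, so that RK12.2.New.MO and this library did not differ at the precision given.

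Principal cells (PC), in which the study found the highest expression of ENaC, the target of amiloride, did not hold one position. The study also found ENaC in connecting tubule cells and, at a lower level, in a subtype of DCT cells. It identified these by subclustering DCT and PC cells, and the annotation used here does not name them. The PC share was 8.33% in RK11.2.New and 3.91% in RK12.2.New.MO. In DOCA it was 6.73% in RK2.2.New, 4.06% in RK7.1, 3.03% in RK7.2, 6.64% in RK8.2 and 9.57% in RK9.1.Old.MO. The amiloride libraries were thus near opposite ends of the DOCA range, with a mean of 6.12% against 6.01% ± 2.56 (SD, n = 5) and an exact two-sided permutation p of 1. Control libraries were closer together, from 5.99% to 8.38%. Intercalated cells, the acid-base cells between the principal cells, ran the other way. Type A cells made up 2.18% of RK11.2.New and 4.98% of RK12.2.New.MO, and type B cells 2.69% and 4.23%, where DOCA ranged from 2.42% to 3.65% for type A and from 1.01% to 3.30% for type B. As a result PC were 63.1% of PC and intercalated nuclei in RK11.2.New and 29.8% in RK12.2.New.MO. The DOCA libraries, at 41.6% to 64.2%, were less spread than the 2 amiloride libraries.

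**Figure D2:**
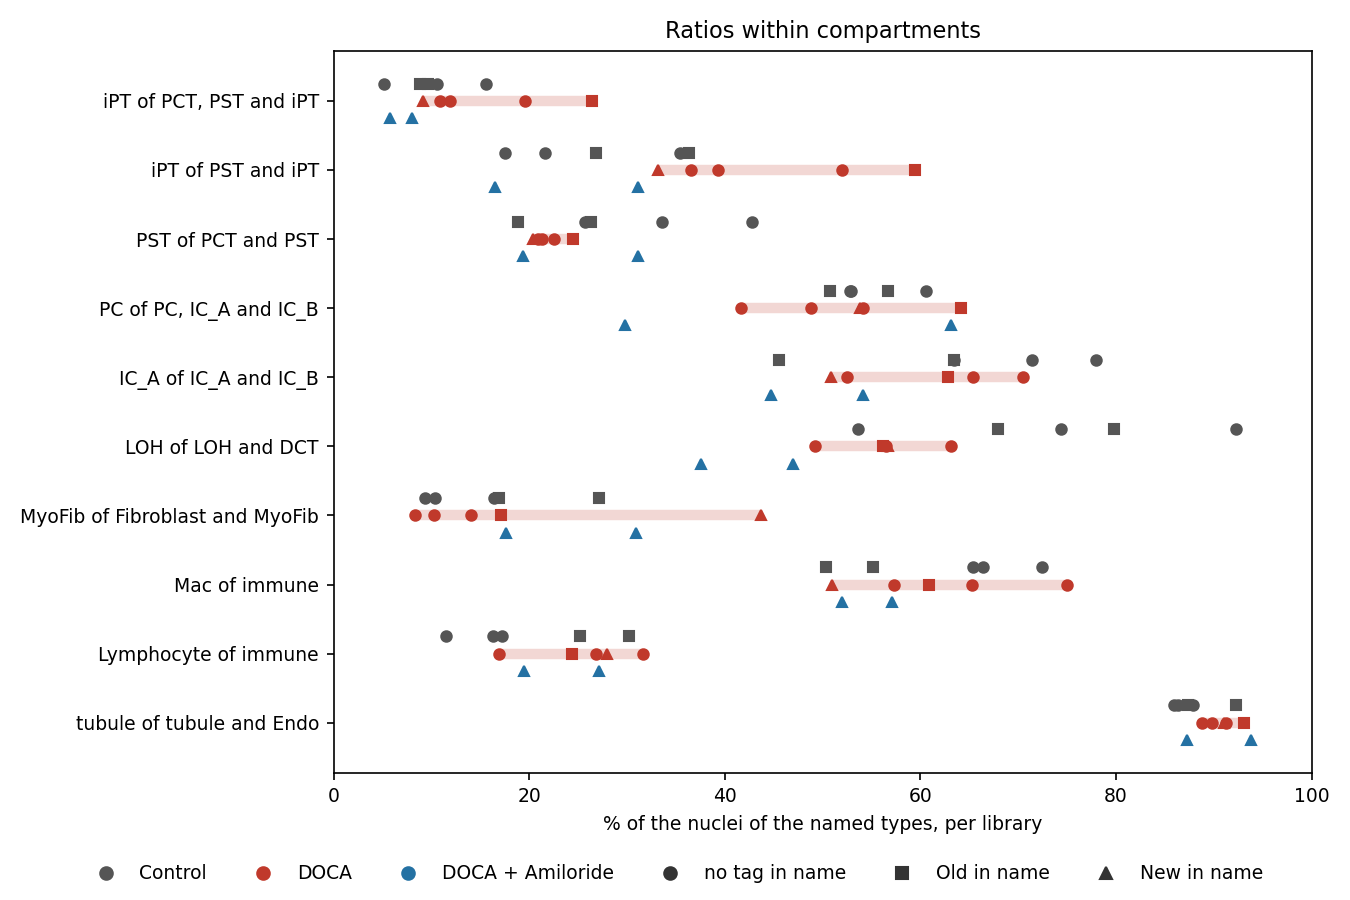
Ratios of nuclei within compartments, in percent of the named types on the x axis, with 1 point per library and the DOCA range as a red band. Both amiloride libraries (blue) lie below the DOCA range in 3 of the 10 ratios, both iPT ratios and LOH of LOH and DCT, and PC of PC, IC_A and IC_B splits them to 29.8% and 63.1%.

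Of the 10 ratios examined, 3 lay below the DOCA range in both amiloride libraries and none above it, or 30% of the ratios. The iPT ratios share their nuclei, so they are not separate observations. The lowest adjusted p of the exact permutation tests over the ratios was 0.317.

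Proliferating tubule cells, named for the cell-cycle marker Mki67, stayed at the DOCA level. They made up 1.37% of RK11.2.New and 1.22% of RK12.2.New.MO, and 0.936% to 1.71% of the DOCA libraries. No control library exceeded 0.495%, and in 1 control library of 1238 nuclei none was found, which allows a share of up to 0.242% when set at 3 counts of the total and of up to 0.298% by the exact interval. Compared with the controls, 3 types lay outside the control range in both amiloride libraries (18.8%). DCT cells and proliferating tubule cells were higher and LOH cells lower, and the summed share of the proximal tubule, given above, was higher too. Of these, proliferating tubule cells were also among the 2 types (12.5%) in which all DOCA libraries lay above all controls. The other was lymphocytes, in which the amiloride libraries, with 0.781% and 0.285%, overlapped both groups.

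Podocytes, which form the glomerular filter, made up 1.24% of RK11.2.New and 0.619% of RK12.2.New.MO. In the DOCA libraries the share was 0.310% to 0.843%, with a median of 0.534%, so that 4 of the 5 lay below both amiloride libraries and RK8.2 lay between them. Without RK8.2, podocytes were above the DOCA range in both. The shares rest on 138 and 63 podocyte nuclei with amiloride and on 7 to 85 in a DOCA library (exact permutation test, two-sided, p = 0.190, adjusted p = 0.653). Over all treatments but amiloride, podocytes made up 0.534% to 7.68% of New libraries. They made up 0.560% to 1.53% of Old libraries and 0.132% to 0.996% of those with neither word. New libraries had the highest podocyte shares in the finerenone and spironolactone groups, but not in DOCA.

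Stromal and vascular cells moved apart in the 2 amiloride libraries. Endothelial, fibroblast and myofibroblast nuclei together made up 7.70% of RK11.2.New, below the lowest DOCA library at 8.80%, and 15.7% of RK12.2.New.MO, above the highest at 13.2%. Endothelial cells accounted for most of this gap, with 5.84% and 12.0% against 6.13% to 9.98% in DOCA. Fibroblasts, which lay down matrix, made up 1.28% and 3.04%, where DOCA ranged from 1.77% to 4.41% and controls from 0.766% to 4.68%. Myofibroblasts, their contractile relatives, made up 0.574% and 0.649%. All DOCA libraries but RK2.2.New had less, between 0.161% and 0.506%, while RK2.2.New had 1.86%. No difference in stromal cells between the groups was thus larger than the spread between libraries.

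Immune cells were fewer in the amiloride libraries than in 4 of the 5 DOCA libraries. Macrophages, monocytes and lymphocytes together made up 2.88% of RK11.2.New and 1.46% of RK12.2.New.MO. In DOCA they made up 2.28% of RK2.2.New, 7.67% of RK7.1, 7.07% of RK7.2, 6.25% of RK8.2 and 8.65% of RK9.1.Old.MO. The 4 high DOCA libraries were thus well above the rest, and RK2.2.New lay between the amiloride libraries. Macrophages, the largest immune type, made up 1.50% and 0.836% with amiloride. The corresponding DOCA values were 1.16% in RK2.2.New and 4.05% to 5.75% in the others, and control libraries had 0.740% to 2.77%. The mean macrophage share was 1.17% against 4.06% ± 1.78 (SD, n = 5), a ratio of 0.287 (exact permutation test, two-sided, p = 0.190, adjusted p = 0.653). Without RK2.2.New, macrophages and lymphocytes were below the DOCA range in both amiloride libraries, and against RK2.2.New alone the difference in macrophages was 0.0023 percentage points. Of the immune nuclei, macrophages were 52.0% and 57.0% with amiloride, and in DOCA 51.0% in RK2.2.New and 57.3% to 75.0% in the other 4. Without RK2.2.New this ratio was also below the DOCA range in both, with a mean difference of -10.1 percentage points, and RK12.2.New.MO was then close to the lowest DOCA library.

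Since both amiloride libraries are New libraries, their shares were set beside those of the other libraries with the same word in their names. These were RK2.2.New of DOCA, 2 finerenone libraries and 1 spironolactone library. iPT ranged from 1.48% to 5.34% in these 4, and the amiloride libraries lay within that range. By contrast, iPT ranged from 4.44% to 11.4% in the 5 Old libraries, the lowest of which was level with RK12.2.New.MO, and from 2.79% to 11.5% in the 11 libraries with neither word. The immune share ranged from 0.597% to 3.28% in the 4 New libraries, again around both amiloride values. It was 1.34% to 8.65% (median 2.68%) in the 5 Old libraries, also around both, and 1.66% to 11.1% (median 7.07%) in the 11 untagged ones. In each of the DOCA, finerenone and spironolactone groups the New libraries had the lowest iPT shares. They also had the lowest immune shares, except that 1 finerenone New library, at 3.28%, exceeded the Old finerenone library at 2.68%. What goes with the word New and what goes with amiloride cannot be told apart beyond the comparison with RK2.2.New. That library may itself be the 3-week library, so that time may differ in it as well. Finerenone and spironolactone also had 1 sample each from 3 weeks, listed under Cell Ranger 6.0.1. Time may therefore differ in their New libraries too. The ratio of LOH to LOH and DCT nuclei did not overlap between the amiloride and the other New libraries, and its relation to the name was not tested. It was 56.3% to 76.8% in the 4 other New libraries and 56.2% to 79.8% in the Old ones, all above both amiloride libraries, and 42.6% in the lowest untagged library, of finerenone.

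**Figure D3:**
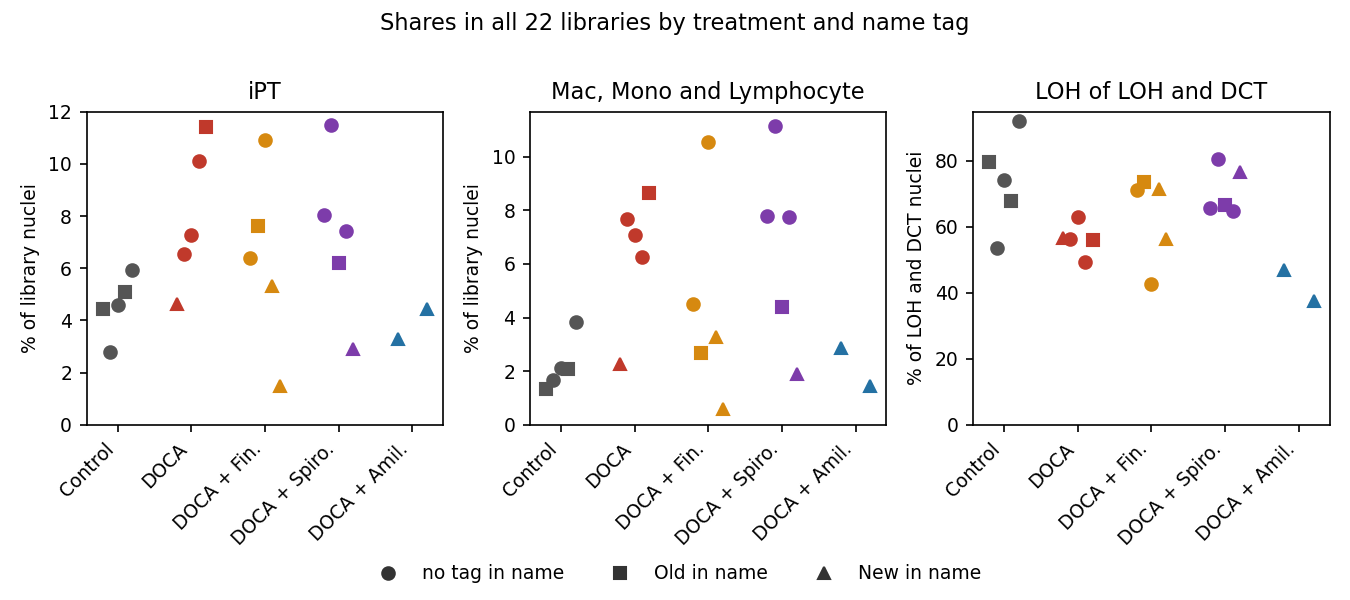
Shares in all 22 libraries by treatment, with the marker shape giving the word in the library name; y axes start at 0 and are in percent of library nuclei, or of LOH and DCT nuclei in the right panel. New libraries (triangles) have iPT shares of at most 5.34% in each treatment, and in the right panel RK12.2.New.MO, at 37.5%, lies below all other libraries and RK11.2.New, at 47.0%, below all but RK12.2.New.MO and 1 finerenone library.

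When only the 2 DOCA libraries with Old or New in their names were used, 5 of the 16 types (31.2%) lay outside their range in both amiloride libraries. iPT and LOH cells were lower, and PCT, PST and podocytes were higher. With RK2.2.New as the only DOCA library, 7 types (43.8%) lay on the same side of it in both. Those were the same 5 types together with proliferating tubule cells and myofibroblasts, which were lower. A range set by 1 or 2 libraries is easily left, so these counts describe the libraries and carry no test. The iPT difference was -4.17 percentage points with the 2 tagged DOCA libraries and -0.776 with RK2.2.New alone.

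The tagged libraries can also be paired by MO, RK11.2.New with RK2.2.New and RK12.2.New.MO with RK9.1.Old.MO. Each amiloride library was lower than its DOCA partner in iPT and LOH, and higher in PCT, PST and podocytes, whereas the other 11 types went in opposite directions in the pairs. The same libraries gave the tagged DOCA range above, so the types outside that range had to agree in both pairs. Their agreement is therefore no separate observation. The iPT share was 0.711 times that of the partner without MO and 0.388 times that with MO. For LOH these ratios were 0.705 and 0.373. The immune types were among those that went in opposite directions. Macrophages were 1.29 times the partner's share in RK11.2.New and 0.159 times in RK12.2.New.MO. Since the second pair joins a New with an Old library, MO is matched in it but the other word is not.

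**Figure D4:**
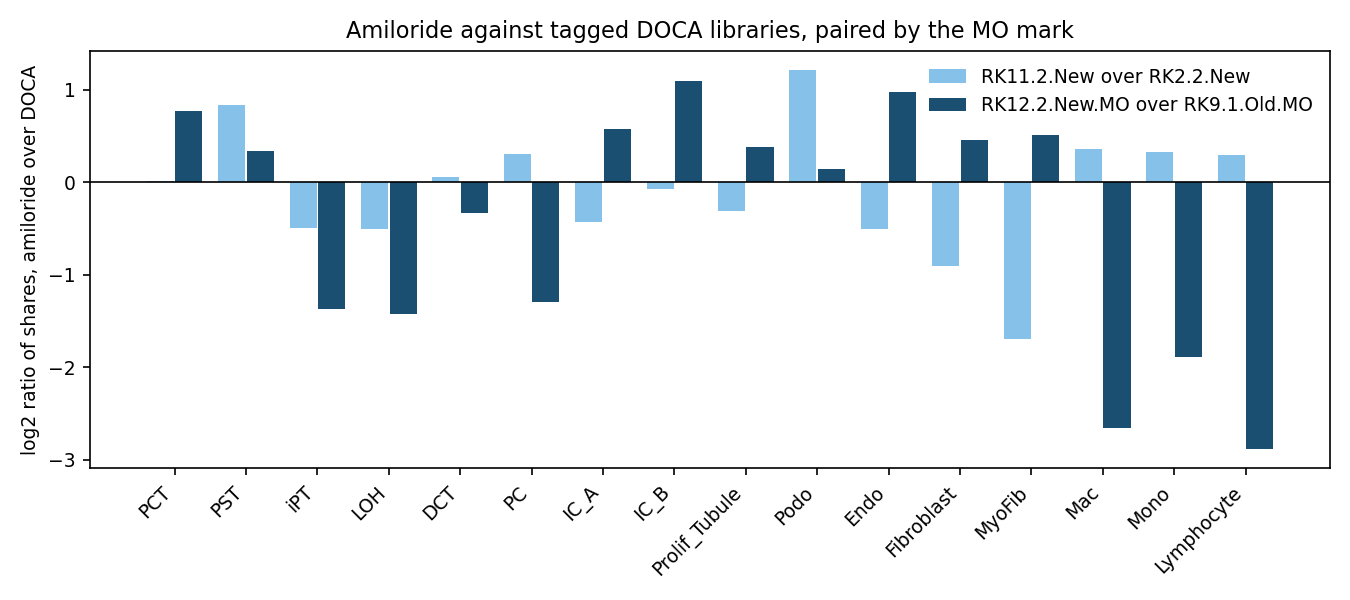
log2 ratios of the share of each cell type, amiloride over DOCA, for the pair of libraries without MO (light) and the pair with MO (dark), with no error bars because each bar is 1 library over another. Only iPT and LOH are below 0 and only PCT, PST and podocytes above 0 in both pairs; the PCT bar of the light pair is close to 0 (log2 ratio 0.01).

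Whole compositions did not set the amiloride libraries apart from DOCA. The Bray-Curtis distance, the part of the 16 shares by which 2 libraries do not overlap, was 17.5% between the 2 amiloride libraries. It averaged 17.5% over the 10 pairs of an amiloride and a DOCA library, 16.9% over the 10 pairs within DOCA and 19.6% over the 10 pairs of an amiloride and a control library. The pairs within DOCA ranged from 5.03% to 26.3%, so that the 2 amiloride libraries were no closer to each other than DOCA libraries commonly were. Of all 21 other libraries, RK11.2.New was nearest to RK2.2.New, at 10.8%, followed by the control library RK11.3 at 10.8%. RK12.2.New.MO was nearest to the control libraries RK12.2.Old.MO and RK11.3, at 10.6% and 10.7%. It was farthest within the DOCA group from RK9.1.Old.MO, at 29.96%.

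**Figure D5:**
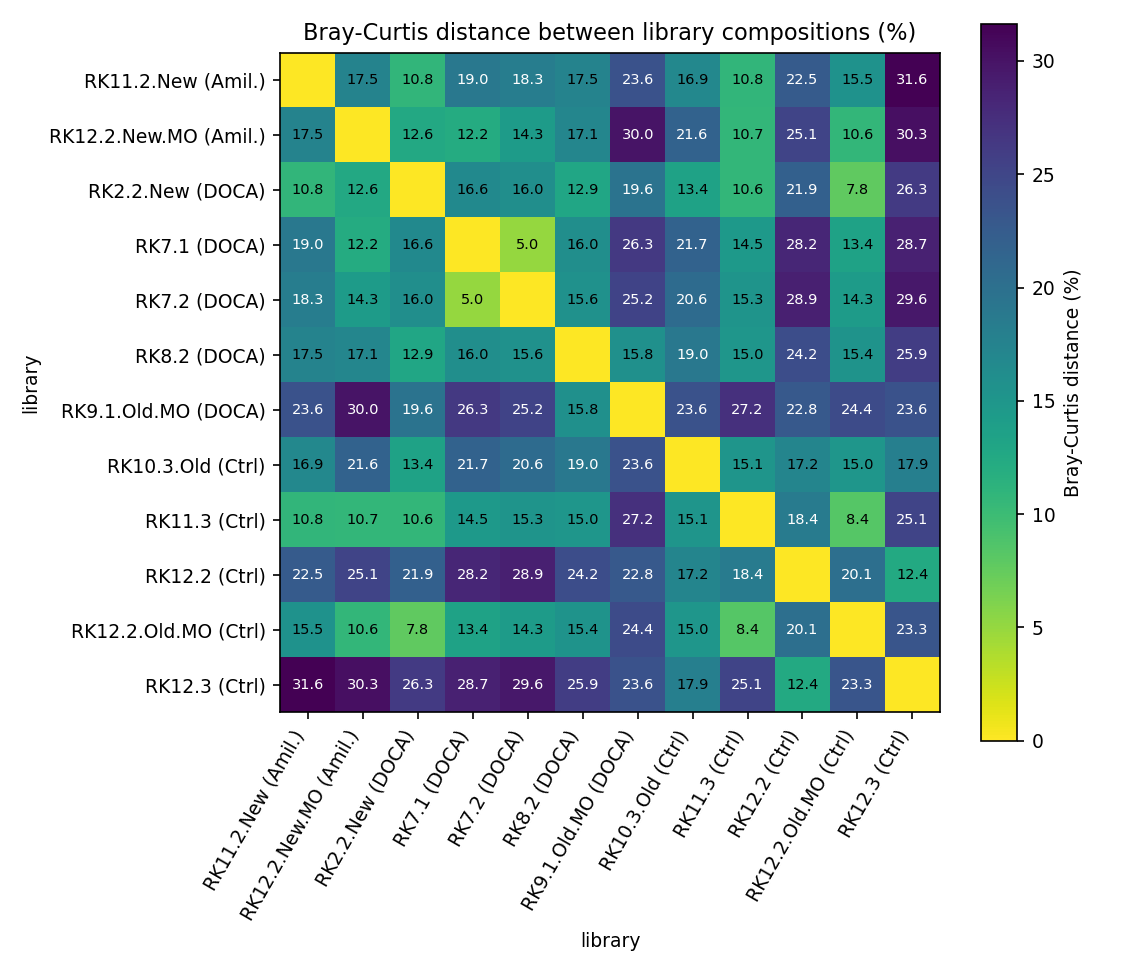
Bray-Curtis distance in percent between the compositions of the 2 amiloride (Amil.), 5 DOCA and 5 control (Ctrl) libraries, on both axes, with darker cells for larger distances. The pair of amiloride libraries, at 17.5%, lies inside the 5.03% to 26.3% spanned by pairs of DOCA libraries.

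On the deposited UMAP, which places similar nuclei near each other after batch correction, the neighbors of each nucleus were taken among nuclei of the same type in the 7 amiloride and DOCA libraries. Of the 30 nearest neighbors of RK11.2.New nuclei, 14.2% came from RK12.2.New.MO where 14.9% would follow from numbers of nuclei, a ratio of 0.95. In the other direction the ratio was also 0.95. From the amiloride libraries toward DOCA libraries the ratio was 0.883 overall and ranged from 0.591 to 1.34, and between DOCA libraries it ranged from 0.50 to 1.39. The ratio between the amiloride libraries thus lay within both of these spreads. The highest of these ratios from an amiloride library was between RK11.2.New and RK2.2.New, both New libraries.

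The neighbors of iPT nuclei were also read in the whole annotation. Of the 30 nearest neighbors of iPT nuclei, 96.0% were iPT in RK11.2.New and 98.0% in RK12.2.New.MO, based on 368 and 451 nuclei. In DOCA the same share was 99.1% in RK2.2.New and 88.6% to 92.6% in the other 4, and in controls it was 94.8% to 99.1%. PCT nuclei made up 2.56% and 1.20% of the neighbors with amiloride and 4.33% to 5.59% in the 4 DOCA libraries other than RK2.2.New, where they made up 0.318%. For PCT and PST nuclei RK2.2.New was again the highest of the amiloride and DOCA libraries, but the order of the others differed. RK7.1, the lowest for iPT at 88.6%, was the highest of the other 4 DOCA libraries for both. These 4 lay below both amiloride libraries for PCT, but for PST RK7.1 lay above RK12.2.New.MO. The amiloride libraries also changed places, with RK11.2.New the higher for PCT and PST. Neighbors of the same type made up 99.0% and 98.4% for PCT with amiloride, 99.3% in RK2.2.New and 95.7% to 98.1% in the other 4 DOCA libraries. For PST they made up 98.7% and 98.1% with amiloride, 99.0% in RK2.2.New and 95.3% to 98.2% in the other 4.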

How the data were processed

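The authors aligned snRNA-Seq reads, introns included, to the rat build rn6 with Cell Ranger (3.0.2 and 6.0.1 in the submitters' notes). SoupX was used against ambient RNA and DoubletFinder against doublets, nuclei were filtered by genes detected and mitochondrial reads, Harmony was used for batch correction and clusters were named from markers. The authors deposited, for each nucleus, names for its library, treatment and cell type and 2 UMAP coordinates, a score with no unit. Nuclei were counted per library with Python 3.11.15 and pandas 2.3.3. A type was called lower or higher when both amiloride libraries lay outside the range of all DOCA libraries. Exact two-sided permutation tests over libraries, Benjamini-Hochberg adjustment and exact 95% intervals were computed with scipy 1.17.1, neighbors with scikit-learn 1.9.0, and the code was tested on simulated data. The centred log-ratio added 0.5 to each count and used log2. Nuclei were not used as replicates. The study describes kidney samples, but library names are not tied to rats in the sources used here, so p-values measure only the spread between libraries. Libraries hold 1238 to 18931 nuclei in the 12 described, and the reads behind them were not analysed here. The cell types, ratios and lists were chosen with earlier results of these data known. All 16 types are accounted for, with every library's value for PC, iPT and types outside the DOCA range. LOH, the immune sum and LOH of LOH and DCT were given per library after their values were seen. Alternatives were other DOCA libraries, leaving out MO libraries or each library in turn, other denominators, centred log-ratios, pooled nuclei, medians, another distance and other numbers of neighbors. The comparison with RK2.2.New alone was added after seeing the data.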

Additional observations from a re-analysis of the deposited data

Results flagged for a closer look

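Within groups of 5 libraries, 52 sets of values (16 shares and 10 ratios, in DOCA and in control) were searched by Dixon's gap test. The search was for a single library far from the other 4. Of the 52 sets, 3 were flagged, which is close to the rate of about 1 in 20 that chance gives. In DOCA, the library RK2.2.New had a myofibroblast share of 1.86%, while the other 4 lay between 0.161% and 0.506%. The same library had 43.7% myofibroblasts among fibroblasts and myofibroblasts, beside 8.33% to 17.1% in the others. Over all treatments but amiloride, this ratio was 34.6% to 47.8% in the 4 New libraries, RK2.2.New among them. It was 12.2% to 27.1% in the Old and 8.33% to 16.4% in the untagged libraries. The amiloride libraries, also New, had 30.9% and 17.6%, below the other New libraries. In control, the library RK10.3.Old had an endothelial share of 7.49%, below the 11.2% to 12.7% of the others. The first and second flagged values, both of RK2.2.New, come from the same nuclei.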

How the results depend on the processing

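The number of types outside the DOCA range in both amiloride libraries was 1. It became 5 with the 2 tagged DOCA libraries, 7 with RK2.2.New alone, and 8 without the MO libraries, which leaves 1 amiloride library. It was 1 to 8 when single libraries were left out. Without RK2.2.New it was 4 (iPT, macrophages and lymphocytes lower, myofibroblasts higher), without RK8.2 it was 2 (iPT lower, podocytes higher), and without RK11.2.New or RK12.2.New.MO it was 8 or 6. It stayed at 1 on centred log-ratios and without proximal tubule nuclei, but the type was then DCT, higher, and not iPT, which the second of these does not count. The iPT difference, -4.13 percentage points, was -4.97 to -3.27 without single libraries and lost its place outside the range on centred log-ratios (-0.83 on the log2 scale). Both ratios with iPT and the ratio of LOH to LOH and DCT stayed below the DOCA range with other DOCA libraries and with single libraries left out.

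Some types overlapped DOCA with all libraries but left its range, with the opposite sign of the mean difference, under an alternative. These were IC_A and endothelial shares without the MO libraries (-0.765 and -2.96) or without RK12.2.New.MO (-0.847 and -2.43, beside 1.96 and 3.75 without RK11.2.New), proliferating tubule cells against RK2.2.New alone (-0.41), and myofibroblasts without RK2.2.New (0.218, and down to -0.207 without RK7.2). Among ratios they were PST of PCT and PST without RK11.2.New (-2.54, beside 9.21 without RK12.2.New.MO), tubule to endothelial nuclei without RK12.2.New.MO (3.00, beside -3.54 without RK11.2.New) and, against RK2.2.New alone, myofibroblasts of fibroblasts and myofibroblasts (-19.5) and macrophages of immune nuclei (3.55). The cause was not tested. Over all types, 27 of 234 alternative values changed sign, in 11 of the 16 types, and PST, iPT, IC_B, podocytes and lymphocytes had no sign change.

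The mean distance from amiloride to DOCA libraries over that within DOCA was 1.04, with 1.21 by Aitchison distance and 0.983 for tagged DOCA libraries. The neighbor ratio of 0.95 between the amiloride libraries was 0.945 with 10 and 0.953 with 100 neighbors. No paired analysis was possible because library names carry no replicate number that the labels give, and the pairs by MO share only a mark in their names and carry no test. The number of libraries limits every test, and the numbers of nuclei limit the narrow gaps in iPT and in LOH of LOH and DCT and the podocyte shares.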

Other observations

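Of the numbers in the library names, 5 occur in more than 1 library, and 4 of these in more than 1 treatment. RK2.2.New of DOCA shares its number with RK2.2.Old.MO of finerenone, RK7.1 of DOCA with RK7.1.New of finerenone, and RK8.2 of DOCA with RK8.2.New of finerenone. RK12.2.New.MO, which is 1 of the 2 amiloride libraries, shares its number with RK12.2 and RK12.2.Old.MO of the control group. What a number stands for is not given in the sources used here, and the treatments that the annotation gives for these libraries were not tested. RK12.2.New.MO and RK12.2.Old.MO were 10.6% apart by Bray-Curtis distance, and RK12.2.New.MO and RK12.2 were 25.1% apart. RK12.2.Old.MO shared 204 barcode sequences with RK12.2.New.MO, the lowest value among the 4 other MO libraries, which reached 302. RK12.2 shared 0, and the libraries without MO shared 0 to 2. The shared number thus did not go with a higher count than MO alone.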
